A study of Mus musculus with 8 samples.

Results

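The genes described here encode proteins of the muscle Z-disc together with desmin. They are Actn2, Actn3, Ldb3, Myoz1, Myoz2, Tcap, Csrp3, Xirp1 and Des, and all array probe sets annotated with one of these symbols alone were taken. That gave 13 probe sets for the 9 genes, out of 45037 probe sets tested and 18193 genes with a single symbol. They were followed in C2C12, an established mouse myoblast line that fuses into myotubes when serum is lowered. In 4 cultures the cells carried a lentivirus with scrambled RNA, and in the other 4 one that delivers siRNA to Trp53inp2, the gene of DOR. Both groups were transduced at an moi of 100, expanded for 5 to 7 days, sorted to 93 to 99% GFP-positive cells and kept for 4 days in medium with 5% horse serum, per the labels' protocols. Other labels call the cells confluent myoblasts, so how far they had differentiated is unclear. The cultures are called biological replicates without a statement of how they were derived from the line, so the p-values measure the spread between these cultures. Values are log2 expression values, 1 array per culture, and differences are DOR siRNA minus scrambled.

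The Z-disc is the plate at each end of the sarcomere, where thin filaments of opposite polarity are anchored. Alpha-actinin cross-links their ends, and adaptor proteins bind alpha-actinin, titin and signalling enzymes there. Desmin, the intermediate filament of muscle, rings the Z-discs and ties neighbouring myofibrils to each other and to the membrane. Desmin is made already in myoblasts, while most of the Z-disc proteins appear as myofibrils are assembled.

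Actn2, Csrp3, Myoz2 and Ldb3 fell in the knockdown cultures, each by its brightest probe set. Actn3, Tcap, Xirp1, Myoz1 and Des did not pass. A gene was called where its limma p after Benjamini-Hochberg adjustment across every probe set was under 0.05. These 4 of 9 genes compare with 1.45% of all genes called lower, and 4 of 13 member probe sets with 1.19% of all probe sets. For the same 4 genes every knockdown array lay below every scrambled array, against 4.13% of all genes. That held for 5 of the 13 probe sets, against 4.05% of all probe sets. All 9 differences were negative, as were 45.1% of those of all genes, and their median was -0.53 against 0.015 for all genes. A paired fit, in which the replicate number was a block, was also made, since arrays of the same number share a letter in the labels. Deviations of same-numbered arrays correlated at 0.15, 0.19, 0.14 and 0.47 for numbers 1 to 4. Between different numbers the correlation reached 0.27, so the values themselves bear out the pairing only weakly. The paired fit called 7 of 9 members lower, adding Actn3, Tcap and Xirp1, against 3.16% of all genes. It called 8 of the 13 probe sets lower, against 2.81%. Within the numbered pairs the knockdown array was the lower one in 4 of 4 for these 7 genes, against 12.5% of all genes. The count also depended on single arrays. It dropped to 1 when scrambled 2, scrambled 3 or DOR siRNA 3 was removed, to 2 for scrambled 1 or DOR siRNA 4 and to 3 for DOR siRNA 1. It was 5 when scrambled 4 or DOR siRNA 2 was removed. The number of all probe sets called also varied with the array removed, as given in the closing section.

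**Figure D1:**
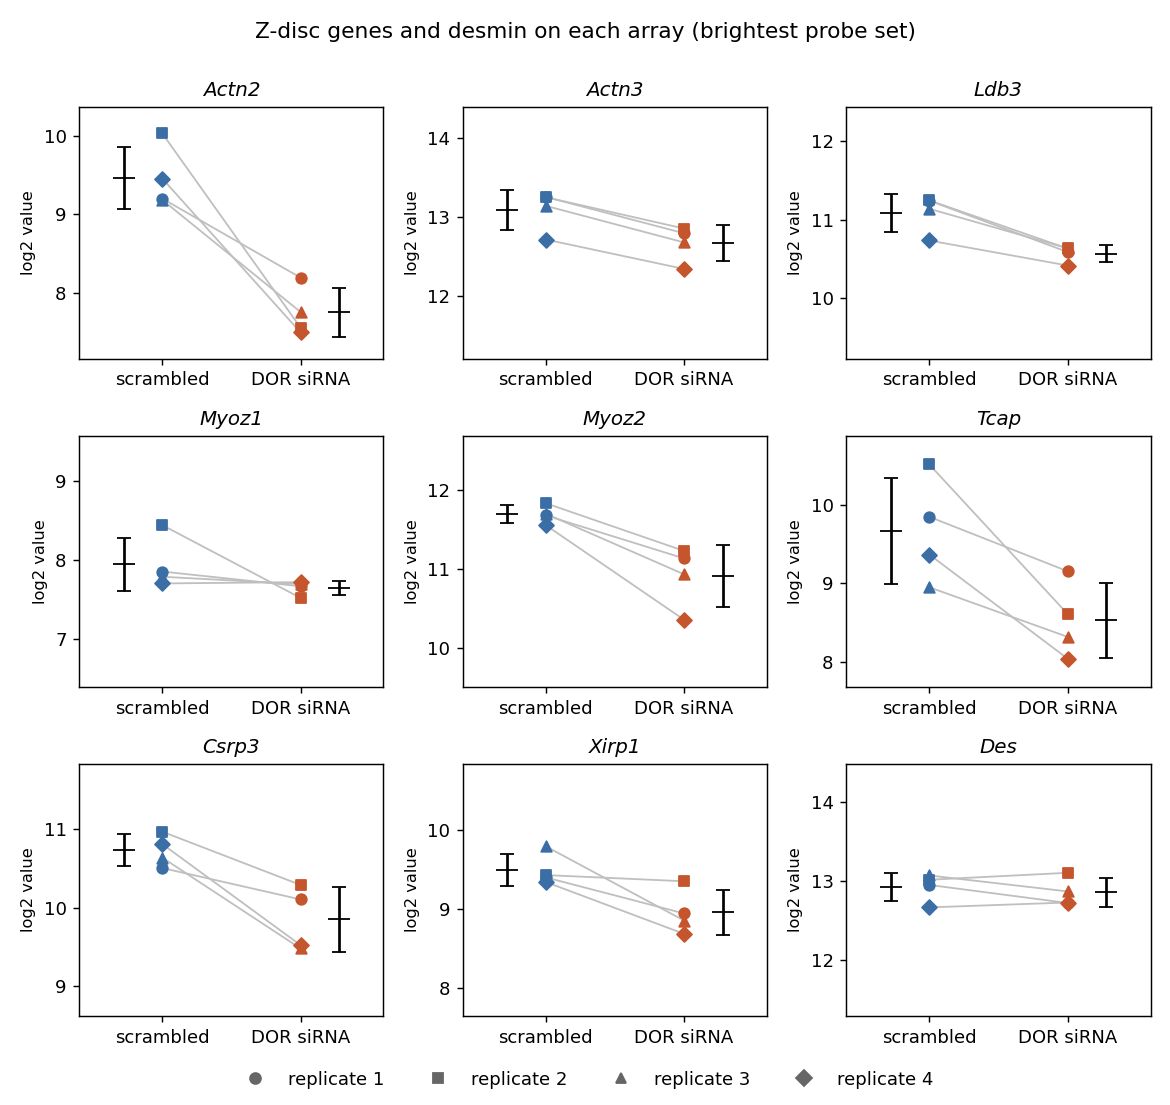
Log2 value of each gene's brightest probe set on every array (vertical axis, the same 3.2-unit span in each panel), with scrambled arrays in blue and DOR siRNA arrays in orange. Grey lines join arrays of the same replicate number, and black bars give the group mean and SD (n = 4). The groups are apart for Actn2, Ldb3, Myoz2 and Csrp3 and overlap for Actn3, Myoz1, Tcap, Xirp1 and Des.

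Promoter sequence was listed for 5 of the 9 genes in the RefSeq tables (build GRCm38.p6): the 4 that fell and Des. It is shown so that the 4 genes called lower can be read beside Des, which was not called. Each line gives the 250 bases before a listed transcript start, 5′ to 3′ on the gene's strand. Capitals mark an E-box, a MEF2 site or a CArG box (the site class of serum response factor), all reading alike on both strands. The E-box pattern, CANNTG, is a wide class that includes the sites of MyoD-family factors but is not theirs alone.
Actn2, chr13:12340733-12340982, minus strand: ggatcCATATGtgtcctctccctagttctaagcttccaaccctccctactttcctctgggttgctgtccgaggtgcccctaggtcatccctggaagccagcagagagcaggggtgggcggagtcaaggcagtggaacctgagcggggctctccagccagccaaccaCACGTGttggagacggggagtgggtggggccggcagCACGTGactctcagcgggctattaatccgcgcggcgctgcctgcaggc
Csrp3, chr7:48848052-48848301, minus strand: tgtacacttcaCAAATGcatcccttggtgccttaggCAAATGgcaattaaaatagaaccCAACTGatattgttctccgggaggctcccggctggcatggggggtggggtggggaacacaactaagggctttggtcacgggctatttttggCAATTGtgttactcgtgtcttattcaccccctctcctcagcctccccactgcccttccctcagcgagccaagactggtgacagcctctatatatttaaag
Myoz2, chr3:123034988-123035237, minus strand: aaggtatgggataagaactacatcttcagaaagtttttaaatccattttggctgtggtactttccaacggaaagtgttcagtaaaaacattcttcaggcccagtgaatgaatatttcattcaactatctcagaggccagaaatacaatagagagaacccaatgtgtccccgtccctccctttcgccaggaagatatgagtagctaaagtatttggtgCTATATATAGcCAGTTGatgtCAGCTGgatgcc
Ldb3, chr14:34588682-34588931, minus strand: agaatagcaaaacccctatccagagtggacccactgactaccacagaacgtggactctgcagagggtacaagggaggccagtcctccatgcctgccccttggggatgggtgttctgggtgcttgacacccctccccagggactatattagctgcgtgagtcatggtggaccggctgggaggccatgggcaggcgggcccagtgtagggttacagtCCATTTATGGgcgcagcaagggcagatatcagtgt
Des, chr1:75360042-75360291, plus strand: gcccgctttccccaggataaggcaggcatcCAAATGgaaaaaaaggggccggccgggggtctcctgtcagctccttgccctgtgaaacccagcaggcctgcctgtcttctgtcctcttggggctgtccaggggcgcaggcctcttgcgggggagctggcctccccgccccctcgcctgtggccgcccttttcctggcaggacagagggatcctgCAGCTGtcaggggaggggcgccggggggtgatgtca
The windows of Actn2, Csrp3 and Des end at the gene's outermost annotated start, and those of Myoz2 and Ldb3 end at starts 16 and 1633 bases from it. Csrp3 and Ldb3 each have 2 listed windows, of which the one nearest that outermost start is shown. The other window of Csrp3, 4380 bases from it, held 4 E-boxes, and that of Ldb3, 1707 bases from it and overlapping the one shown, held 1 CArG box and no E-box. An E-box was found 3 times in the Actn2 window, 4 times in Csrp3, 2 times in Myoz2 and 2 times in Des, and it occurs in 66.2% of all 32851 promoter windows of this length. Both inner E-boxes of Actn2 read CACGTG, and the E-box nearest the start of Myoz2 and of Des read CAGCTG in each case. Myoz2 alone of the 5 windows held a MEF2 site, 33 to 24 bases before its start, as do 2.92% of all windows. It does not overlap an E-box. Ldb3 held a CArG box 35 to 26 bases before its start, found in 1.47% of all windows, and no E-box. These matches are letters in a window, not shown binding sites.

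Actn2 had the largest difference of the 9 genes. Actn2, the alpha-actinin found in all muscle fibre types, read 9.20, 10.03, 9.18 and 9.46 in scrambled arrays 1 to 4 and 8.20, 7.56, 7.76 and 7.50 in DOR siRNA arrays 1 to 4. The groups were apart by about a log2 unit. The mean was 9.47 ± 0.39 and then 7.75 ± 0.32 (SD over 4 arrays). Actn2 thus fell 3.28-fold, by a log2 difference of -1.71 ± 0.20 (SE; limma adjusted p = 0.0021). Actn2 ranked 38 by p among the 18193 genes, and its call held whichever array was left out (limma adjusted p up to 0.012). Its 4 same-numbered differences were uneven, from -1.0 in pair 1 to -2.47 in pair 2.

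Actn3, the alpha-actinin of fast fibres, read 13.25, 13.25, 13.14 and 12.71 across scrambled arrays 1 to 4 and 12.79, 12.85, 12.68 and 12.34 across the knockdown arrays. The groups overlapped, because scrambled 4 was low. The difference was -0.42 ± 0.14 (limma adjusted p = 0.15). Within the numbered pairs it was nearly constant, from -0.46 to -0.37, and the paired fit called it (limma adjusted p = 0.011). Without scrambled 4 it passed too (-0.55, limma adjusted p = 0.029). Actn1 and Actn4, the alpha-actinins of stress fibres and adhesions in non-muscle cells, did not pass, with differences of 0.09 ± 0.08 and 0.25 ± 0.10 (limma adjusted p = 0.72 and 0.24).

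To set the changes of 2 genes beside each other, the log2 difference between them was taken on each array and compared between groups. This was done for 5 pairs with exact two-sided permutation tests, where 0.029 is the smallest possible p. The fall of Actn2 exceeded the change of Actn1 by 1.80 log2 units, that of Actn3 by 1.29 and that of Des by 1.64 (exact p = 0.029 and 0.048 adjusted over the 5 pairs, for each). In all 3 cases the 4 knockdown arrays lay below the 4 scrambled arrays, so each exact p was the smallest possible. Leaving out any 1 array could not change this, since groups that are wholly apart stay so (adjusted exact p = 0.048 each time). Actn2 and Des were the members with the largest and the smallest difference on these same arrays. The adjustment over 5 pairs does not cover how the pairs were chosen, so these p-values add no support beyond the sizes. Relative to the scrambled mean, Actn2 minus Actn3 read -0.97, -1.67, -1.29 and -1.22 in the knockdown arrays, while the scrambled arrays ran from -0.43 to 0.40.

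**Figure D2:**
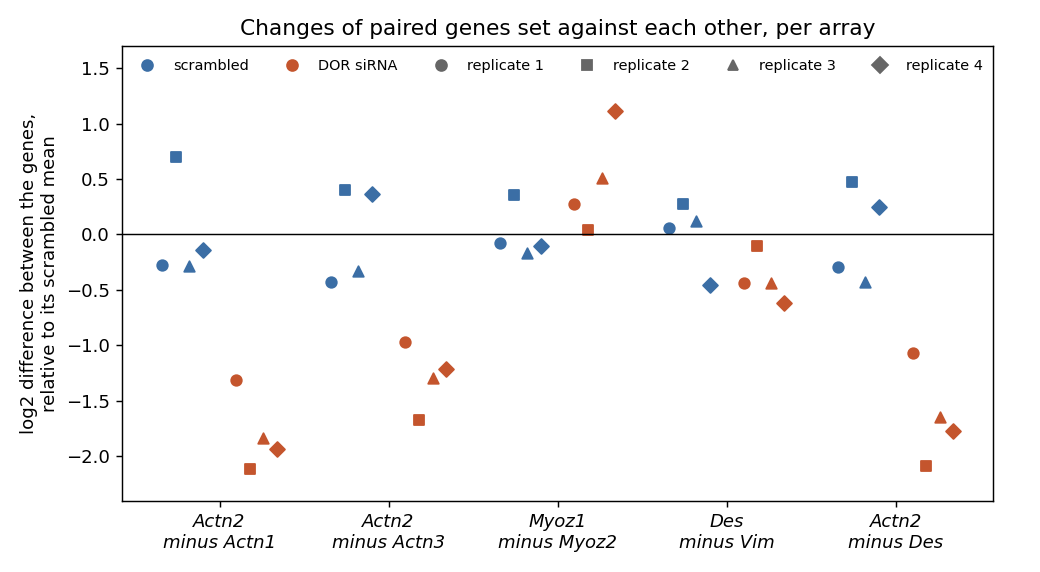
Log2 difference between 2 genes on each array, set to a mean of 0 in the scrambled arrays (vertical axis), for the 5 pairs tested. Blue points are scrambled arrays, orange points DOR siRNA arrays, and shapes give the replicate number. Knockdown arrays lie wholly below scrambled ones for the 3 pairs with Actn2 and overlap them for Myoz1 with Myoz2 and Des with Vim.

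Csrp3 encodes muscle LIM protein, an adaptor of the Z-disc and nucleus. It read 10.50, 10.96, 10.63 and 10.81 across scrambled arrays 1 to 4 and 10.10, 10.29, 9.48 and 9.52 across the knockdown arrays. The groups did not overlap, and DOR siRNA 3 and 4 were the lowest. Csrp3 fell 1.84-fold (log2 difference -0.88 ± 0.18, limma adjusted p = 0.027). The call was lost without scrambled 2, scrambled 3, DOR siRNA 3 or DOR siRNA 4 (limma adjusted p = 0.083, 0.069, 0.077 and 0.056). The related LIM protein Csrp1, found in smooth muscle and other cells, rose by 0.48 ± 0.11 (limma adjusted p = 0.045), although its groups overlapped. With 1 array removed, Csrp1 passed only in the absence of scrambled 4 or of DOR siRNA 3 (otherwise limma adjusted p from 0.074 to 0.13). Whether the changes of Csrp1 and Csrp3 differ was not tested.

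Tcap, or telethonin, caps the ends of titin at the Z-disc. It read 9.85, 10.51, 8.95 and 9.37 across scrambled arrays 1 to 4 and 9.16, 8.61, 8.32 and 8.05 across the knockdown arrays. The spread was wide in both groups (SD 0.67 and 0.47), and DOR siRNA 1 lay above scrambled 3. The difference, -1.14 ± 0.31 or 2.20-fold, was the one next in size to Actn2 but did not pass (limma adjusted p = 0.076). The paired fit called it (limma adjusted p = 0.011), with pair differences from -1.90 to -0.63.

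The calsarcins Myoz1 and Myoz2 link alpha-actinin and filamin to calcineurin at the Z-disc, Myoz1 in fast fibres and Myoz2 in slow and cardiac muscle. Myoz2 read 11.68, 11.83, 11.70 and 11.56 across scrambled arrays 1 to 4 and 11.13, 11.23, 10.93 and 10.35 across the knockdown arrays. The groups were apart, with DOR siRNA 4 the lowest. Myoz2 fell 1.72-fold (log2 difference -0.78 ± 0.16, limma adjusted p = 0.029). Its call was lost without scrambled 1, 2 or 3 or DOR siRNA 3 (limma adjusted p = 0.085, 0.090, 0.086 and 0.080).

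Myoz1 read 7.85, 8.44, 7.79 and 7.70 across scrambled arrays 1 to 4 and 7.66, 7.52, 7.69 and 7.72 across the knockdown arrays. Apart from the high scrambled 2, all arrays were within a narrow band. The difference of -0.30 ± 0.14 did not pass (limma adjusted p = 0.36, 95% confidence interval -0.61 to 0.02), and without scrambled 2 it was -0.13. A further probe set of Myoz1, with means of 4.41 and 4.35, was dimmer than the array-wide median (6.18) and differed by -0.06 ± 0.10. The change of Myoz1 minus that of Myoz2 was 0.48 (exact p = 0.086, adjusted 0.11). It ran from -0.32 to 1.22 over the numbered pairs, so a difference between the calsarcins was neither shown nor bounded closely.

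Ldb3, the PDZ-LIM protein known as Cypher or ZASP, had 3 probe sets. The brightest read 11.24, 11.24, 11.14 and 10.73 across scrambled arrays 1 to 4 and 10.59, 10.63, 10.63 and 10.42 across the knockdown arrays. The groups were apart, though scrambled 4 came close to the knockdown arrays. The difference was -0.52 ± 0.12 (limma adjusted p = 0.037). The other 2 probe sets differed by -0.56 ± 0.15 and -0.56 ± 0.17 without passing (limma adjusted p = 0.074 and 0.11), so the sizes were alike over the 3. The call of the brightest held only without scrambled 4 or DOR siRNA 2 and was lost without any other single array (limma adjusted p from 0.084 to 0.12).

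Xirp1, the actin-binding Xin protein of sites where myofibrils form or are repaired, read 9.40, 9.43, 9.80 and 9.34 across scrambled arrays 1 to 4 and 8.94, 9.35, 8.85 and 8.68 across the knockdown arrays. Only DOR siRNA 2 reached into the scrambled range. The difference was -0.53 ± 0.14 (limma adjusted p = 0.073). It passed in the paired fit (limma adjusted p = 0.042) and without DOR siRNA 2 (-0.67, limma adjusted p = 0.017).

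Desmin was the member with the smallest difference. Its bright probe set read 12.95, 13.02, 13.07 and 12.67 across scrambled arrays 1 to 4 and 12.72, 13.11, 12.87 and 12.73 across the knockdown arrays. The groups interleaved, with the lowest value in a scrambled and the highest in a knockdown array. The means were 12.93 ± 0.18 and 12.86 ± 0.18, a difference of -0.07 ± 0.11 (limma adjusted p = 0.86). Its 95% confidence interval ran from -0.32 to 0.18, so a fall of the size of that of Csrp3 or Myoz2 lies outside it. In the numbered pairs 2 of 4 differences were negative, and the paired fit did not call Des either (limma adjusted p = 0.74). The dimmer Des probe set gave -0.06 ± 0.08. With means of 6.34 and 6.28 it lay near the array-wide median (6.18), so it adds little to the bright one.

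**Figure D3:**
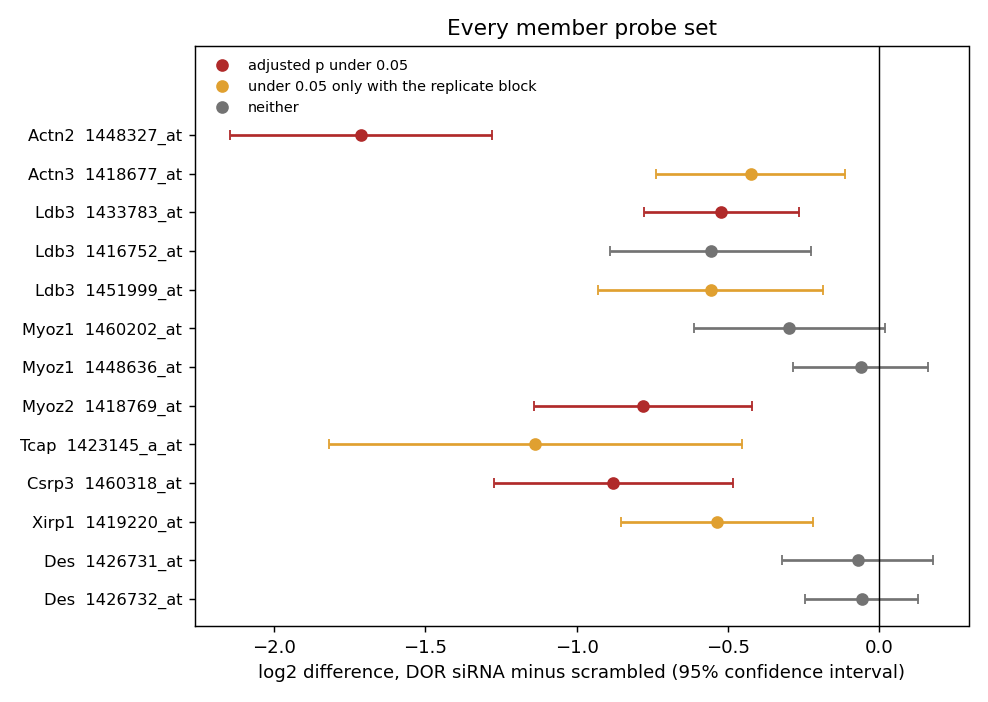
Log2 difference of every member probe set with its 95% confidence interval (horizontal axis). Red marks an adjusted p under 0.05, yellow one under 0.05 only with the replicate block, and grey neither. The 4 red points are Actn2, Ldb3, Myoz2 and Csrp3, and both Des intervals include 0.

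Other intermediate filaments and their linkers were measured by 12 genes, and none passed the limma test, against 4.56% of all genes called in either direction. At an unadjusted p under 0.05, 3 were lower and 1 higher, and the share of all genes at that level was not counted. The paired fit called 1 lower and 1 higher, where 8.25% of all genes were called in either direction. Those were Sync, or syncoilin, which binds desmin filaments in muscle (-0.44 ± 0.12, limma adjusted p = 0.077 and 0.033 in the paired fit), and Vim, the filament protein of undifferentiated and mesenchymal cells (0.33 ± 0.09, limma adjusted p = 0.081 and 0.039 in the paired fit). Both passed without scrambled 4 (limma adjusted p = 0.011 and 0.031). The change of Des minus that of Vim was -0.40 (exact p = 0.11, adjusted 0.11), and it was negative in 4 of 4 numbered pairs, from -0.56 to -0.16.

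Among 33 other Z-disc genes 6 fell and 1 rose, against 1.45% and 3.11% of all genes. The median of the 33 was -0.11. The genes that fell were Hspb7, a small heat shock protein of muscle (-0.94 ± 0.19), Cavin4, a muscle caveolar protein also found at the Z-disc (-0.68 ± 0.10), and Nrap, a nebulin-related scaffold of myofibril assembly (-0.66 ± 0.14). Jph1, counted in this list, is a junctophilin that joins the sarcoplasmic reticulum to the transverse tubules. It fell by 0.63 ± 0.07, Nexn, the F-actin-binding nexilin, by 0.54 ± 0.09 and Synpo2l by 0.50 ± 0.09. For Hspb7 3 of 3 probe sets passed. The dimmer Jph1 probe set did not (-0.44 ± 0.13, limma adjusted p = 0.10). None of the dimmer Synpo2l probe sets passed either, with differences from -0.46 to 0.08 (limma adjusted p from 0.062 to 0.75). By their brightest probe sets, Cavin4, Jph1 and Nexn passed with any 1 array removed (limma adjusted p up to 0.036), while the other 3 genes did not. Removing scrambled 1, scrambled 3, DOR siRNA 1 or DOR siRNA 3 ended the call of Synpo2l (limma adjusted p at most 0.068). For Hspb7 this was so for every array except scrambled 4, DOR siRNA 1 and DOR siRNA 2 (at most 0.083), and for Nrap for every array except scrambled 4 and DOR siRNA 2 (at most 0.094). Csrp1 was the gene that rose, and its dimmer probe set did not pass (0.35 ± 0.14, limma adjusted p = 0.23). The paired fit called 11 lower, against 3.16% of all genes. The count without 1 array ran from 3, without scrambled 1, scrambled 3 or DOR siRNA 3, to 8. Probe sets of a gene did not always go together. Named after their values were seen, further probe sets of Pdlim5 (0.62 ± 0.12) and Synpo2 (0.52 ± 0.12) rose, while another of Synpo2 fell by 0.69 ± 0.16 (limma adjusted p = 0.024, 0.046 and 0.039).

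**Figure D4:**
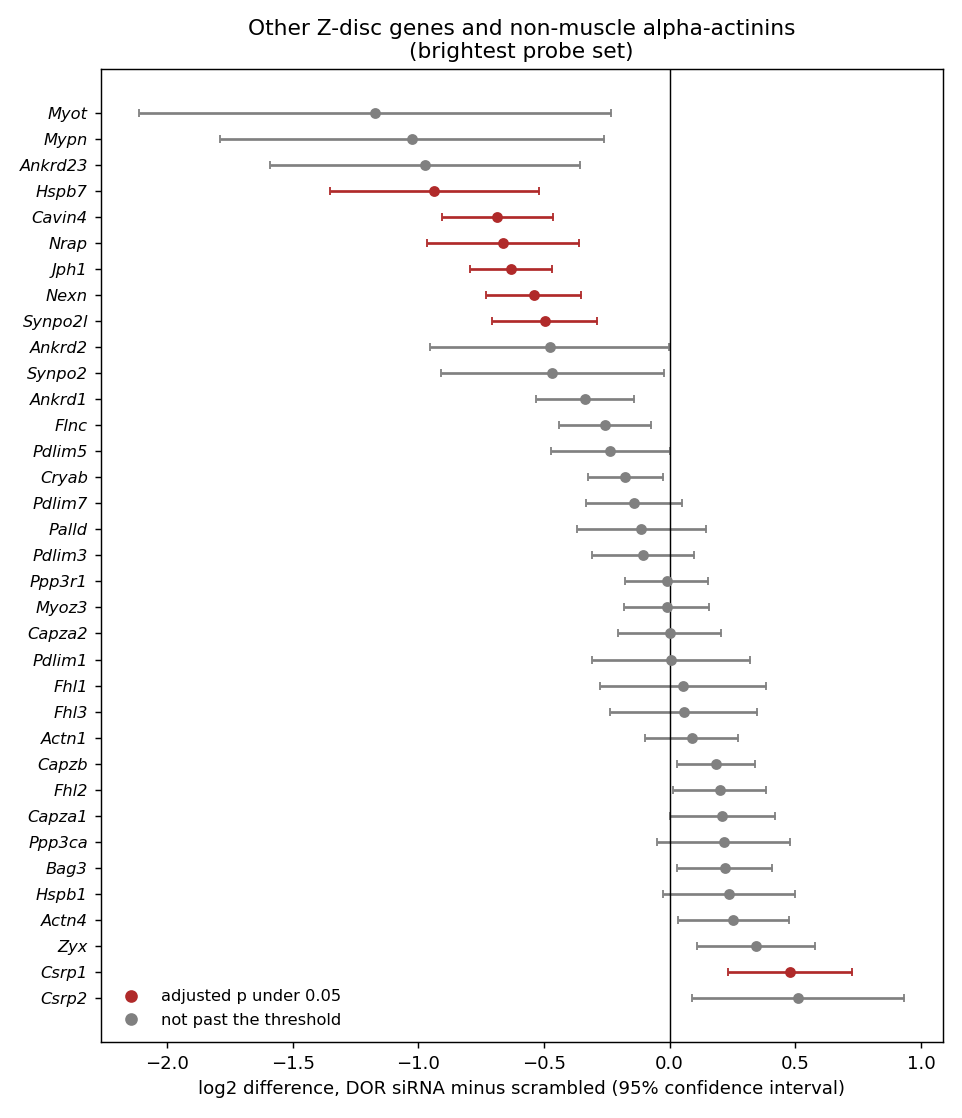
Log2 difference of the 33 other Z-disc genes and of Actn1 and Actn4 by their brightest probe sets, sorted by size, with 95% confidence intervals (horizontal axis). Red genes passed the limma test at an adjusted p under 0.05: 6 lower and Csrp1 higher. Genes with larger differences but wide intervals, such as those at the top, did not pass.

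The members differed in which numbered pair showed the larger difference. The difference was greatest in pair 2 for Actn2 (-2.47), Tcap (-1.90) and Myoz1 (-0.93), and in pair 4 for Myoz2 (-1.20) and Csrp3 (-1.28). It was smallest in pair 2 for Xirp1 (-0.08) and in pair 4 for Ldb3 (-0.32). Scrambled 2 held the highest scrambled value for 6 of the 9 members, among them Actn2, Tcap and Myoz1, so their pair 2 values also reflect that array. Of the dimmer Ldb3 probe sets, 1 was smallest in pair 3 (-0.22, with -0.67 in pair 4) and 1 in pair 4 (-0.12). The mean shift of the 9 members from their scrambled means was -0.53, -0.55, -0.76 and -0.98 in DOR siRNA arrays 1 to 4, and -0.20 to 0.29 in the scrambled arrays. DOR siRNA 4 held the lowest value of all 8 arrays for 6 of the 9 members.

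**Figure D5:**
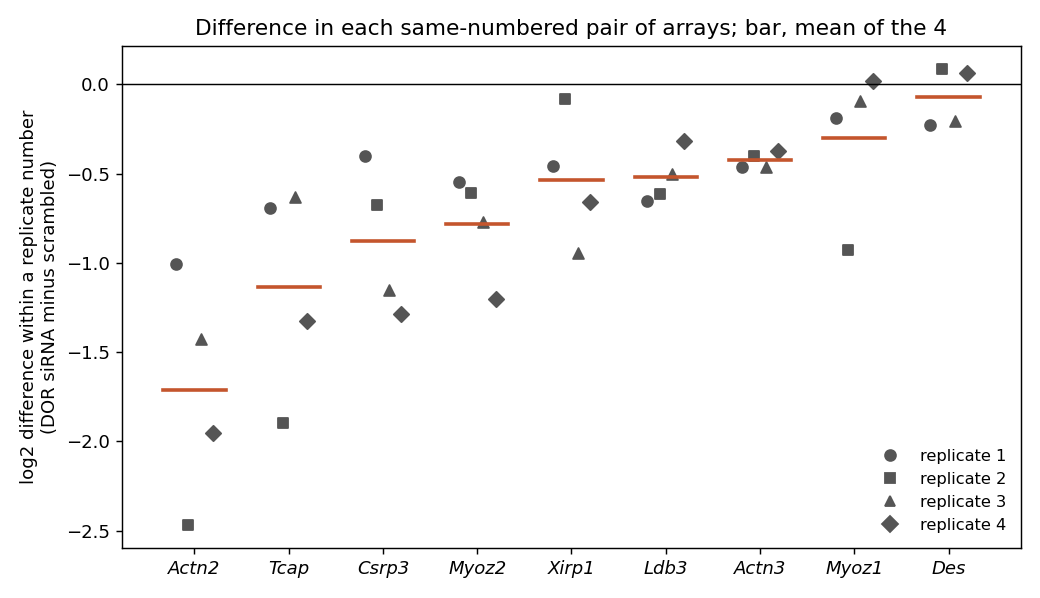
Difference between the DOR siRNA and the scrambled array of each replicate number (vertical axis, log2 units) for the 9 genes, with a bar at the mean of the 4. Points of Actn3 lie close together, from -0.46 to -0.37, those of Actn2 spread from -2.47 to -1.0, and those of Des fall on both sides of 0.

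Genes outside the set whose array profiles were nearest were found by the root mean square difference of log2 values over the 8 arrays, each gene centred on its own mean, among 11256 genes at or above the median. Nearest to Actn2 were Dhrs7c, an enzyme of the sarcoplasmic reticulum (0.22), Trp63 (0.26), Myl2, a myosin regulatory light chain (0.30), Cdkn1c (0.39) and Reep1 (0.40). All 5 were nearer to Actn2 than any other member, the closest being Tcap (0.42) and Csrp3 (0.52). With 11256 genes to choose from and few members, this order shows nothing particular about the members. Nearest to Des were Fxr2 (0.033), Ccdc3 (0.042), Gtpbp1 (0.042), Phrf1 (0.043) and Myo1c (0.044), of which none passed the limma test. The distance includes the group difference, so by construction the nearest genes have differences like that of Actn2 or of Des.

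Several measures of the whole cultures went with the group. The target transcript Trp53inp2 was lower in the knockdown by its brightest probe set, 9.46, 9.93, 9.49 and 9.18 against 10.92 to 11.55 in the scrambled arrays, and its other probe set did not differ (0.14 ± 0.08). Of 8 myotube markers 3 fell (5 in the paired fit), against 1.45% of all genes called lower (3.16% in the paired fit). All 8 differences were negative (median -0.43), as were 45.1% of those of all genes. The mean level of the 8 ran from 12.98 to 13.38 in scrambled and 12.31 to 12.89 in knockdown arrays. Tnnt3, a fast troponin T, fell by 0.70 ± 0.16 and Myh3, the embryonic myosin heavy chain, by 0.42 ± 0.09. Of 5 proliferation markers 4 rose, against 3.11% of all genes called higher, Top2a by 0.59 ± 0.11 and Cdk1 by 0.66 ± 0.13. The paired fit called all 5 higher, where 8.25% of all genes were called in either direction. The mean levels of the 5 were 8.71 to 9.03 in scrambled and 9.33 to 9.54 in knockdown arrays. Among 6 myoblast markers 1, Ncam1, fell by its brightest probe set (-0.59 ± 0.11), against 1.45% of all genes called lower. The next 2 brightest of Ncam1 differed by 0.12 ± 0.15 and 0.01 ± 0.10 (limma adjusted p = 0.82 and 0.98). The dimmer ones had negative differences without passing. Pax7, whose means of 5.07 and 5.51 lay under the median, did not pass (0.44 ± 0.12). The paired fit called 1 of the 6 lower and 1 higher, where 8.25% of all genes were called in either direction. The mean level of the 6 overlapped between the groups, at 10.03 to 10.26 and 10.08 to 10.22. The dimmer Top2a probe sets did not pass, with differences of 0.21 ± 0.11 and -0.002 ± 0.13 (limma adjusted p = 0.43 and 0.997). By its brightest probe set Top2a kept its call with any 1 array removed (limma adjusted p at most 0.048). Tnnt3, Myh3, Cdk1, Ncam1 and Pdgfra, a fibroblast marker that rose, each lost it when scrambled 1, scrambled 3 or DOR siRNA 3 was removed (limma adjusted p from 0.050 to 0.11). Apart from Ncam1 they also lost it when scrambled 2 was removed (0.053 to 0.11). Removing DOR siRNA 1 ended the calls of Myh3, Cdk1 and Pdgfra (0.057 to 0.076), and removing DOR siRNA 4 those of Tnnt3 and Myh3 (0.059 and 0.067). In bulk RNA, fewer myotubes and less of a transcript per myotube cannot be told apart, and the part of these shifts in the Z-disc results was not tested.

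Of 6 fibroblast markers 1, Pdgfra, rose by its brightest probe set (0.57 ± 0.12), against 3.11% of all genes called higher. The dimmer Pdgfra probe sets differed by 0.10 ± 0.16 and 0.21 ± 0.10 without passing (limma adjusted p = 0.86 and 0.33). Dcn did not pass (0.56 ± 0.15, limma adjusted p = 0.077). It passed in the paired fit (limma adjusted p = 0.0076) and with the beta-actin covariate described below (0.029). At an unadjusted p under 0.05, 4 of the 6 were higher and 0 lower. The share of all genes at that level was not counted. The paired fit called 3 higher and 1 lower, where 8.25% of all genes were called in either direction. Named after their values were seen, Postn had the largest difference of the 6 and Col1a1 the smallest. Postn was the lower one (-0.94 ± 0.53, limma adjusted p = 0.46 and 0.014 in the paired fit), and Col1a1 differed by 0.04 ± 0.23. The median of the 6 was 0.36, with mean levels of 9.28 to 9.46 and 9.10 to 9.85. None of 5 adipocyte markers passed the limma test, with 1 higher at an unadjusted p under 0.05, and their mean levels were 6.20 to 6.38 and 6.39 to 6.56. Cebpa differed by 0.91 ± 0.25 with groups that did not overlap (limma adjusted p = 0.080), and the paired fit called it higher (limma adjusted p = 0.022), as did the fit with the beta-actin covariate described next (0.012). The defining marker Adipoq read 3.18 and 3.24, far under the median. None of 4 osteoblast markers passed, also at an unadjusted p under 0.05, with mean levels of 5.01 to 5.24 and 4.98 to 5.16, Ibsp at 4.02 and 3.88 and Sp7 at 6.13 and 6.32. The part of these marker shifts in the Z-disc results was not tested either. The poly-A control probe sets averaged 8.40 on scrambled 3 and 8.41 on DOR siRNA 4, against 8.74 to 9.16 on the other 6 arrays. With that average as a covariate, chosen after the data were seen, 4 members were called lower: Actn2, Csrp3, Myoz2 and Tcap. Ldb3 was not (limma adjusted p = 0.056). That fit called 473 of all 45037 probe sets lower, against 535 in the fit by group alone. The signal of the beta-actin control at its 3′ end exceeded that at its 5′ end by 0.31 to 0.40 in the scrambled arrays. In the knockdown arrays the excess was 0.28 to 0.50. With this excess as a covariate 6 members and 7 member probe sets were called lower. That fit called more of all probe sets too, with 1202 lower against 535 in the fit by group alone.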

How the data were processed

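The deposited values are the authors' log2 expression values per probe set from 1-colour Affymetrix arrays. RMA is the method named in the submitters' processing notes. RNA was amplified from 25 ng of total RNA per culture, per the labels' protocols. RMA makes the arrays' distributions alike, so a change common to the whole transcriptome is hidden. Its version is not given in the sources used here. Array medians were 6.14 to 6.20, and correlations between arrays 0.988 to 0.997. With 4 arrays a group, precision is limited by their number.

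Of 45101 probe sets, 64 controls were left out. Names came from the platform annotation (34945 probe sets with 1 symbol, 932 with several, 9160 with none), and 34741 matched RefSeq gene identifiers. No probe set of a member carried a further symbol. For a gene, the brightest probe set (highest mean over the arrays) was used.

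limma 3.58.1 (R 4.3.3) was fitted by group alone to all 45037 probe sets, with Benjamini-Hochberg adjustment. The members and gene lists were chosen with earlier results of these data known. Named genes are the members, Trp53inp2, Actn1, Actn4, up to 8 called genes of each further list or its 2 smallest p, 2 genes of each marker list and the 5 nearest profiles to Actn2 and to Des. The fit was tested on simulated data. Between arrays of the same number, deviations from the group mean had correlations of 0.142 to 0.468, each above 0.1, so the numbers, which share a letter in the labels, were taken as pairing the cultures. Between arrays of different numbers they ran from -0.39 to 0.27, and the highest of these exceeded 3 of the 4 same-number values. Alternatives were the replicate block, cyclic loess, a filter on dim probe sets, a variance trend with a robust prior, 2 covariates, the mean over probe sets and leaving out each array. Figures were drawn with matplotlib 3.10.9.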

Additional observations from a re-analysis of the deposited data

Results flagged for a closer look

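An array far from the other 3 of its group was found for 2 probe sets, out of 96 groups of 4 examined, where chance alone flags about 1 in 20. Pax7 read 5.65 on DOR siRNA 2, against 5.45 to 5.48 on the other knockdown arrays. Cdk1 read 9.69 on scrambled 4, against 9.20 to 9.28 on the other scrambled arrays. No probe set of the 9 Z-disc genes and desmin was flagged in this way.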

How the results depend on the processing

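The differences of all 9 members stayed negative under each of 15 alternatives. The replicate block called 2827 probe sets in place of 1452, 8 member probe sets and 7 member genes lower, 11 other Z-disc genes lower and 2 intermediate filament genes. The beta-actin covariate called 2964 probe sets and 7 member probe sets. Leaving out 1 array gave 608 to 2310 probe sets, 1 to 5 member genes and 1 to 6 member probe sets lower, 3 to 8 other Z-disc genes lower and 0 to 2 intermediate filament genes. The cause was not tested, beyond the smaller number of arrays. Cyclic loess, the dim-probe filter, the variance trend and the mean over probe sets left the member gene count at 4. Of the other genes named, the sign turned only for Gtpbp1 (-0.13 to 0.0074) and Adipoq (-0.01 to 0.15) with an array left out. The pair comparisons kept their sign and their side of the threshold in all alternatives where they were tested. For the pairs with Actn2, leaving out an array could not have changed either, because their groups were wholly apart. Within the 4 numbered pairs they were taken as values only.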
